A study of Mus musculus with 9 samples.

Results

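The genes described here are 32 genes of resident and recruited cardiac macrophages, measured with 30702 genes in all on 9 Affymetrix arrays of whole mouse hearts. The rule lists them by name, as known markers and effectors of the macrophage lineage, and uses no measured value. All 32 were found, each with 1 probe set. Macrophages are phagocytic cells of the innate immune system. The heart holds a resident population that is seeded before birth and renews itself locally, known by the surface proteins Lyve1, Timd4 and Folr2 and by the absence of the chemokine receptor Ccr2. After an infarct, Ly6C-high blood monocytes enter the heart through Ccr2, clear dead muscle and become macrophages, so the balance of both populations is often followed in heart failure.

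All 9 hearts came from nude mice, an immunodeficient strain with no thymus and therefore few T cells, which keeps its monocytes, macrophages, B cells and natural killer cells. Each mouse had been infarcted by permanent ligation of the left anterior descending artery and, at 3 weeks, had an ejection fraction under 50%, which the labels call chronic heart failure. The vesicle group (3 arrays) received the extracellular vesicles that 500000 cardiovascular progenitor cells release in 48 hours. The cell group (3 arrays) received 500000 of those progenitor cells. The sham group (1 array) had the needle passed into the myocardium 3 times with nothing injected, and the control group (2 arrays) was given alpha-MEM, a cell culture medium. Injections for the cell grafts went to 3 sites beside the infarct, through the closed chest and guided by echocardiography. Hearts were taken 6 weeks after treatment. No group is an uninfarcted heart, and the labels used here do not give the age of the mice or the species of the progenitor cells. Titles place vesicle array 1, cell array 1, the sham array and control array 1 in an experiment numbered 9. Vesicle arrays 2 and 3, cell arrays 2 and 3 and control array 2 belong to an experiment numbered 1. Titles also carry a VTS number that arrays share: VTS1 on vesicle, cell and control array 2, VTS2 on vesicle array 3 and cell array 3, and VTS3 on all arrays of experiment 9. What the experiment and VTS numbers stand for is not stated. Nothing in the labels says that arrays are separate animals, so the p-values below measure only the spread between these arrays.

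The values are log2 expression summaries as deposited, whose precision is limited by how few arrays there are. Medians of all genes lay between 5.56 and 5.63 across the arrays. A brightness line was set at 7.20, the 95th percentile of 10553 negative control probe sets (median over the arrays), and between 6436 and 6856 genes exceeded each array's own percentile. Vesicle array 3 stood apart from the rest by transcripts of lung epithelium: the surfactant gene Sftpc read 9.75 there, 6.35 on the sham array and 4.28 to 4.52 on the other 7. Control array 2 stood apart by leukocyte genes, described below. Values without control array 2 are given below for the members described one by one. They rest on control array 1 as the only control. That array was itself the lowest of the 9 for 12 of the 32 members, where it was lowest for 8.61% of all genes.

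By their mean over the arrays, 8 of the 32 macrophage genes exceeded the brightness line: Csf1r, Lyz2, Lyve1, Mrc1, Ly6c2, Ctss, Cyba and Axl. Of these, 7 exceeded each array's own percentile on all 9 arrays, Ctss being the exception. A further 20 members exceeded it on no array. Ccr2 and Plac8 had means of 4.16 and 3.72, under the median negative control probe set at 4.53, so the defining receptor of monocyte-derived macrophages was not detectable above background in these hearts. In addition, 10 members were tied, with a single value shared by at least 3 arrays, as were 61.0% of all genes, which narrows their apparent spread. In RNA of whole hearts, fewer cells of a type and less RNA per cell cannot be told apart.

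None of the 32 genes passed limma's test (adjusted p under 0.05 over all genes) between vesicles, cells and control or between the experiments. The sham array was not in the fit. The count was 0 for vesicles against control (0% of all genes called), 0 for cells against control (0%), 0 for vesicles against cells (0%) and 0 for experiment 9 against experiment 1 (0%). At an unadjusted p under 0.05, vesicles against control gave 2 members, Fcgr3 and Cd14, where 6.48% of all genes passed. Cells against control gave 2 members, Folr2 and Fcgr3, where 6.77% of all genes passed, and vesicles against cells gave 0, where 4.35% passed. Ordinary least squares without moderation of the variances also called none of the 32 in these comparisons. These shares of the members are close to the background of the whole array.

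**Figure D1:**
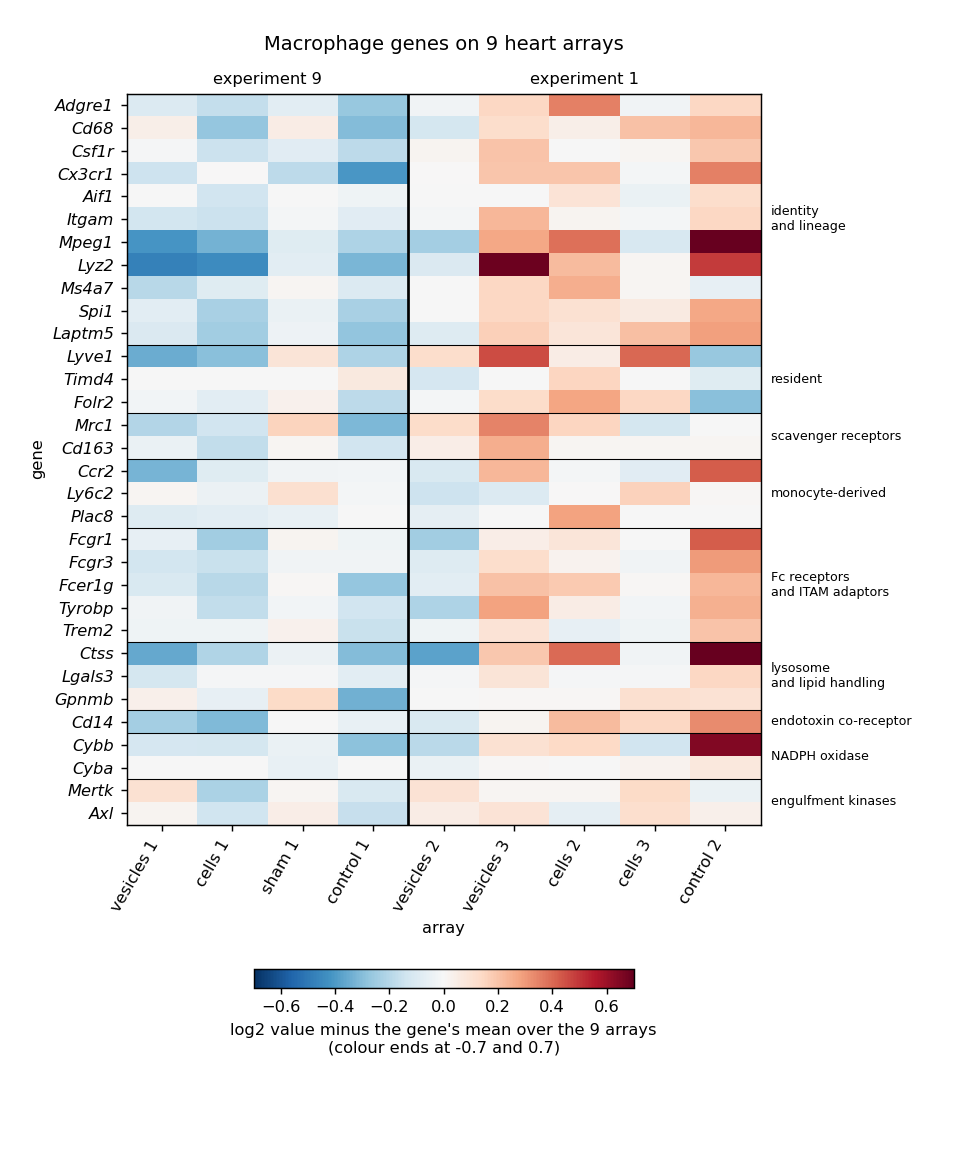
Deviation of each of the 32 macrophage genes from its own 9-array mean on the log2 scale, with genes in rows by role and arrays in columns, experiment 9 left of the black line and experiment 1 right of it. Control array 2 is the darkest column for Mpeg1, Ctss and Cybb, vesicle array 3 for Lyz2, and the experiment 9 columns are mostly blue.

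The resident genes come first. Lyve1, a hyaluronan receptor of resident macrophages that lymphatic endothelium also carries, had log2 values of 7.77, 8.24 and 8.58 on vesicle arrays 1, 2 and 3, 7.82, 8.17 and 8.52 on cell arrays 1, 2 and 3, 8.21 on the sham array and 7.90 and 7.86 on control arrays 1 and 2. The vesicle and cell arrays of experiment 1 lay above both controls, while those of experiment 9 lay below both, so the groups overlapped. The fitted difference was 0.25 ± 0.21 (SE) for vesicles against control and 0.22 ± 0.21 for cells against control, with adjusted p of 0.756 and 0.803 in limma. Without control array 2 these differences became -0.095 and -0.12. The mean deviation of the 3 measured lymphatic genes (Prox1, Pdpn and Flt4) from their 9-array means lay between -0.076 and 0.048 on every array. Their part in the Lyve1 values was not tested.

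Timd4 encodes a phosphatidylserine receptor for the uptake of dying cells. Its values were 5.61, 5.49 and 5.61 on the vesicle arrays, 5.61, 5.76 and 5.61 on the cell arrays, 5.61 on the sham array and 5.68 and 5.53 on the control arrays. They lie under the brightness line and are tied on 5 arrays, and no order of the groups can be read from them. The fitted differences were -0.027 ± 0.075 for vesicles and 0.061 ± 0.075 for cells against control (adjusted p of 0.962 and 0.865 in limma), and -0.11 and -0.027 without control array 2.

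Folr2, the folate receptor beta of resident macrophages, had values of 7.09, 7.10 and 7.24 on the vesicle arrays, 7.04, 7.39 and 7.26 on the cell arrays, 7.15 on the sham array and 6.93 and 6.82 on the control arrays. Its mean of 7.11 lies under the brightness line, and it exceeded the array's own percentile on 3 of the 9 arrays. All 3 vesicle arrays and all 3 cell arrays lay above both control arrays, and so did the sham array. The group means were 7.15 ± 0.085 for vesicles (SD, n = 3), 7.23 ± 0.18 for cells (SD, n = 3) and 6.88 ± 0.077 for control (SD, n = 2). Both differences had the same sign in the separate experiments: the vesicle arrays were 0.16 above the control of experiment 9 and on average 0.35 above that of experiment 1, and the cell arrays were 0.11 and 0.50 above. The fit gave 0.25 ± 0.10 for vesicles (adjusted p of 0.675) and 0.33 ± 0.10 for cells (unadjusted p of 0.0214, adjusted p of 0.679) in limma, with 95% intervals of -0.01 to 0.51 and 0.07 to 0.59. Neither passed. Both comparisons use the same 2 control arrays, and without control array 2 the differences were 0.092 and 0.18. Over the 19 alternatives that held the gene, Folr2 kept its sign, between 0.081 and 0.38 for vesicles and between 0.18 and 0.47 for cells. The lowest adjusted p in limma was 0.201 and 0.139.

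Folr2 and Mertk were the members whose vesicle arrays all lay above both control arrays, 2 of 32, where 3.71% of all genes did so. Members with every vesicle array below both controls numbered 0 (7.19% of all genes). For cells, Folr2 was the single member above both controls on every array (3.19% of all genes), and 0 members lay below (5.61%).

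The monocyte-derived genes follow. Ccr2, the receptor through which monocytes leave the bone marrow and enter tissue, had values of 3.84, 4.06 and 4.40 on the vesicle arrays, 4.08, 4.15 and 4.08 on the cell arrays, 4.14 on the sham array and 4.15 and 4.59 on the control arrays. Control array 2 was the highest of the 9 and vesicle array 3 the next. The fitted differences of -0.32 ± 0.14 for vesicles and -0.31 ± 0.14 for cells against control did not pass (adjusted p of 0.675 and 0.679 in limma), and all these values lie in the range of negative controls. Without control array 2 both differences were -0.19.

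Ly6c2 encodes the Ly6C antigen by which inflammatory monocytes are sorted. It had values of 10.22, 10.06 and 10.11 on the vesicle arrays, 10.16, 10.21 and 10.36 on the cell arrays, 10.32 on the sham array and 10.19 and 10.21 on the control arrays. These bright values were nearly flat, with a range of 0.30 over the 9 arrays. The near-identical neighbour Ly6c1, which endothelium expresses, was as flat at 9.07 to 9.42, and how far probes are shared between both genes was not tested. Fitted differences were -0.072 ± 0.078 for vesicles and 0.041 ± 0.078 for cells against control (adjusted p of 0.825 and 0.926 in limma), and -0.059 and 0.054 without control array 2.

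Plac8 encodes a small cysteine-rich protein found in monocytes. Its values were 3.63, 3.66 and 3.72 on the vesicle arrays, 3.64, 4.001 and 3.72 on the cell arrays, 3.66 on the sham array and 3.72 and 3.72 on the control arrays, all at background. The differences of -0.065 ± 0.098 and 0.055 ± 0.098 did not pass (adjusted p of 0.890 and 0.918 in limma), and without control array 2 they were -0.14 and -0.019.

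**Figure D2:**
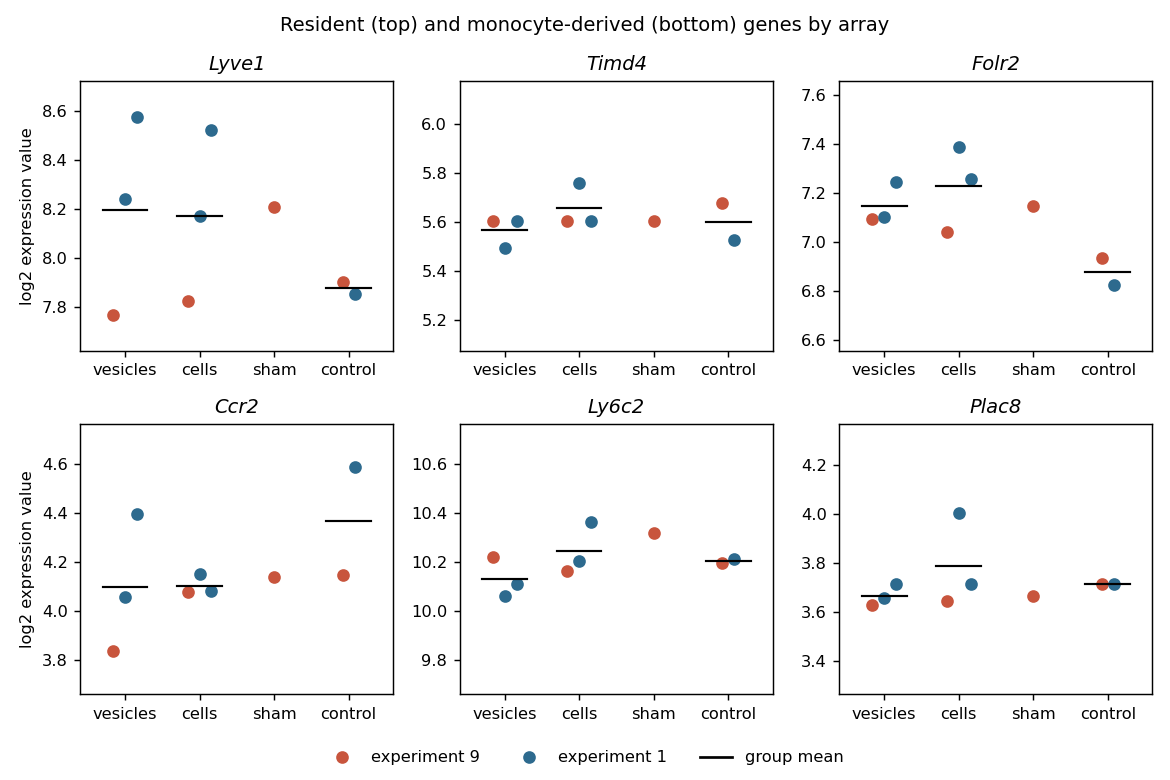
Log2 expression value of the 3 resident genes (top) and the 3 monocyte-derived genes (bottom) on each array, by group, with red points for experiment 9, blue points for experiment 1 and a black bar at the group mean. Each panel spans the same width on the log2 scale but starts at a different level. Folr2 has every vesicle, cell and sham point above both control points, and all Plac8 points and all but 1 of the Ccr2 points lie under 4.53, the median negative control probe set.

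To set the resident genes against the monocyte-derived ones, an index was taken per array: the mean deviation of Lyve1, Timd4 and Folr2 from their 9-array means, minus the same for Ccr2, Ly6c2 and Plac8. It was 0.0083, 0.10 and 0.15 on the vesicle arrays, -0.056, 0.069 and 0.16 on the cell arrays, 0.028 on the sham array and -0.099 and -0.36 on the control arrays. Both controls were the lowest of the 9. On control array 2 the resident side stood at -0.21 and the monocyte side at 0.14. Within experiment 9 the index was 0.11 above control for vesicles and 0.043 above for cells, and within experiment 1 it was 0.48 and 0.47 above. When each side kept only its gene above the brightness line (Lyve1 and Ly6c2), the experiment 9 values turned to -0.16 for vesicles and -0.048 for cells, so the sign there rests on dim genes. No p is given for this score, since its genes were picked by name with earlier results of these arrays known.

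The scavenger receptors Mrc1 and Cd163 mark tissue macrophages that clear glycoproteins and haemoglobin. Mrc1, the mannose receptor, had values of 8.02, 8.36 and 8.58 on the vesicle arrays, 8.09, 8.38 and 8.11 on the cell arrays, 8.38 on the sham array and 7.92 and 8.23 on the control arrays. Its fitted differences were 0.20 ± 0.12 for vesicles and 0.070 ± 0.12 for cells against control (adjusted p of 0.693 and 0.915 in limma), and 0.20 and 0.078 without control array 2. Vesicle array 3 was the highest for both receptors, at 8.58 for Mrc1 and 6.82 for Cd163, and the arrays of the groups overlapped.

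Among the 11 identity and lineage genes, 4 were higher and 7 lower for vesicles against control (60.5% of all genes lower). For cells 3 were higher and 8 lower (56.1% of all genes lower). Csf1r, the receptor for the growth factor that macrophages need to survive, had values of 7.51, 7.54 and 7.72 on the vesicle arrays, 7.37, 7.52 and 7.54 on the cell arrays, 7.45 on the sham array and 7.34 and 7.71 on the control arrays. The 2 control arrays spanned nearly the whole range of the gene. Its difference was 0.034 ± 0.079 for vesicles and -0.081 ± 0.079 for cells against control (adjusted p of 0.947 and 0.815 in limma), and without control array 2 it was 0.16 and 0.045.

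Lyz2 encodes the lysozyme of macrophages and neutrophils, which alveolar cells of the lung also make. It had values of 9.21, 9.58 and 10.37 on the vesicle arrays, 9.24, 9.90 and 9.70 on the cell arrays, 9.61 on the sham array and 9.36 and 10.17 on the control arrays. The highest value lay on vesicle array 3, the array with lung transcripts. The near-identical gene Lyz1 read 8.71 there, against 7.47 to 8.39 elsewhere, and the part of lung tissue in this value was not tested. The difference for cells against control was -0.27 ± 0.24 (adjusted p of 0.796 in limma). It was -0.19 without control array 2 and -0.066 with vesicle array 3 left out as well.

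The other identity genes were dim. Adgre1 (an adhesion receptor of mature macrophages), Cd68 (a lysosomal glycoprotein), Cx3cr1 (the fractalkine receptor), Aif1, Itgam (the CD11b integrin chain) and Ms4a7 had means between 5.01 and 6.79. Spi1, which encodes the lineage factor PU.1, and Laptm5, a lysosomal membrane protein of blood cells, lay at the line with means of 7.20 and 7.11. Mpeg1, the pore-forming perforin-2, ranged from 4.83 to 5.98 and had its highest value on control array 2.

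PU.1 binds purine-rich sites with a GGAA core, and its recognition sequence often reads GAGGAA. Promoter windows from RefSeq (250 bases before to 50 after the start site, build GRCm38.p6) matched 26 of the 32 members with 31 windows. The letters GAGGAA on either strand stood in 16 of these windows (51.6%), against 28.3% of all 32851 windows in the table. The AP-1 letters TGACTCA, which do not overlap them, stood in 3 (9.7%), against 5.2%. A match describes letters only and is not a binding site. The windows given here are those of Folr2 (chr7:101857141-101857440, minus strand), the member with all treated arrays above control, of Ccr2 (chr9:124101933-124102232, plus strand), and of Ctss (chr3:95526536-95526835, plus strand) and Cybb (chrX:9469275-9469574, minus strand), which lay among the highest above their own mean on control array 2. They run 5′ to 3′ along each gene, and capitals mark GAGGAA or its reverse complement.
Folr2: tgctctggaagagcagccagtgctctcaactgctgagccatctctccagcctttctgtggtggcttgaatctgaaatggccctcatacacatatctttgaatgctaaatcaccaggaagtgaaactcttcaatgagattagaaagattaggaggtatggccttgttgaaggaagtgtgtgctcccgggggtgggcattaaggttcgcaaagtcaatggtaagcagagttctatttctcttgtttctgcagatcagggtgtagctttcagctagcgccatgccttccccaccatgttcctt
Ccr2: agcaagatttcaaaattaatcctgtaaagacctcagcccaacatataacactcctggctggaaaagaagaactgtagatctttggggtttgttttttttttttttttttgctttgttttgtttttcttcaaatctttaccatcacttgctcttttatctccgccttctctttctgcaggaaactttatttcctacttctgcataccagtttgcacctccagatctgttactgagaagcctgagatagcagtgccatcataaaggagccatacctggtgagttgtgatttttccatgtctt
Ctss: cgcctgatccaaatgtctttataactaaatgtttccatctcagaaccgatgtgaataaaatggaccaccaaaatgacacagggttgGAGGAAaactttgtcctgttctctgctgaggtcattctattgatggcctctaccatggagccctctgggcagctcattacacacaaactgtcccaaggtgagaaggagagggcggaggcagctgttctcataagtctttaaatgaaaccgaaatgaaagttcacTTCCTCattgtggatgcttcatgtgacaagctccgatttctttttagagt
Cybb: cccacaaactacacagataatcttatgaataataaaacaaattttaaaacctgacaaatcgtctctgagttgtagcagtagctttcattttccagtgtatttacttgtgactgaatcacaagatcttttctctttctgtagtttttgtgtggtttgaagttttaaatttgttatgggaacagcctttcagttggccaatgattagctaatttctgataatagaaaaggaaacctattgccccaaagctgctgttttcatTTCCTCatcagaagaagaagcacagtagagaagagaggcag
The Ctss window holds the letters at 2 places and the Cybb window at 1, and the Folr2 and Ccr2 windows given here at 0. Folr2 has 2 windows, of which only the more upstream is given. These 4 genes were picked after their values had been seen.

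Fc receptors bind antibody-coated particles and signal through ITAM adaptors. All 5 members of this set had a fitted difference under 0 for vesicles and for cells against control, where 60.5% and 56.1% of all genes did so. Fcgr3, a low-affinity receptor for immunoglobulin G, had values of 6.56, 6.59 and 6.81 on the vesicle arrays, 6.53, 6.71 and 6.66 on the cell arrays, 6.66 on the sham array and 6.66 and 6.98 on the control arrays. Control array 2 was the highest of all, and the groups overlapped. The fit gave -0.20 ± 0.078 for vesicles and -0.22 ± 0.078 for cells (unadjusted p of 0.0475 and 0.0346, adjusted p of 0.675 and 0.679 in limma), and Fcgr3 was named after its values had been seen. Without control array 2 the differences were -0.10 and -0.12. Fcgr1 (the high-affinity receptor), Fcer1g and Tyrobp (the adaptors) and Trem2 (a lipid receptor that signals through Tyrobp) had fitted differences between -0.32 and -0.025 for vesicles and between -0.29 and -0.032 for cells.

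Ctss encodes cathepsin S, a lysosomal protease of antigen-presenting cells. It had values of 7.20, 7.18 and 7.75 on the vesicle arrays, 7.34, 7.95 and 7.53 on the cell arrays, 7.52 on the sham array and 7.25 and 8.28 on the control arrays. The control arrays lay at opposite ends, with control array 2 the highest of the 9 and control array 1 the third from the bottom. The difference for vesicles against control was -0.48 ± 0.27 (adjusted p of 0.677 in limma), and in the separate experiments it was -0.056 in experiment 9 and -0.82 in experiment 1. Without control array 2 the fit gave -0.0998, and without control array 1 it gave -0.80. Lgals3 (galectin-3) and Gpnmb (a lysosomal glycoprotein of lipid-laden macrophages) had 9-array ranges of 0.27 and 0.47.

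Cd14, the co-receptor for bacterial endotoxin, had values of 5.92, 6.05 and 6.17 on the vesicle arrays, 5.84, 6.38 and 6.30 on the cell arrays, 6.15 on the sham array and 6.10 and 6.48 on the control arrays. Each injected vesicle array lay below the control of its experiment, by 0.19, 0.44 and 0.31 on vesicle arrays 1, 2 and 3. The fit gave -0.31 ± 0.083 for vesicles against control (unadjusted p of 0.0134, adjusted p of 0.675 in limma), and Cd14 was named after its values had been seen. Without control array 2 it was -0.29. The gene is dim, and the vesicle and control arrays overlapped.

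Cybb and Cyba encode the membrane subunits of the phagocyte NADPH oxidase. Cybb had values of 6.35, 6.28 and 6.57 on the vesicle arrays, 6.34, 6.60 and 6.34 on the cell arrays, 6.42 on the sham array and 6.18 and 7.12 on the control arrays. The control arrays were its lowest and its highest value. Its fitted differences of -0.30 for vesicles and -0.28 for cells turned to 0.15 and 0.18 without control array 2. Without control array 1 they were -0.68 and -0.66. Cyba, bright and widely expressed, had a range of 0.13 over all 9 arrays, with fitted differences of -0.052 ± 0.030 for vesicles and -0.032 ± 0.030 for cells against control (adjusted p of 0.678 and 0.811 in limma), and of -0.010 and 0.010 without control array 2.

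Mertk and Axl are receptor kinases through which macrophages engulf dying cells. Axl, which fibroblasts also express, had values of 8.75, 8.78 and 8.82 on the vesicle arrays, 8.59, 8.66 and 8.85 on the cell arrays, 8.77 on the sham array and 8.56 and 8.76 on the control arrays. Its difference for vesicles against control was 0.097 ± 0.066 (adjusted p of 0.705 in limma). Mertk read 6.76, 6.76 and 6.67 on the vesicle arrays and 6.55 and 6.61 on the control arrays, with a fitted difference of 0.13 ± 0.093 (adjusted p of 0.717 in limma). Without control array 2 the differences were 0.14 for Axl and 0.099 for Mertk.

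Over the 32 members, 11 were higher and 21 lower for vesicles against control (60.5% of all genes lower). Their median log2 difference was -0.042, beside -0.012 over all genes. For cells against control 12 were higher and 20 lower (56.1% of all genes lower), with a median of -0.040, beside -0.0068. With single arrays left out, the vesicle median ranged from -0.11 without control array 1 to 0.035 without control array 2, and was -0.083 without vesicle array 1 and 0.020 without vesicle array 2. The cell median ranged from -0.14 without control array 1 to 0.010 without control array 2. For vesicles against cells 15 were higher and 17 lower (51.8% of all genes lower), with a median of -0.0063, beside -0.00052 over all genes. That median was 0.077 without vesicle array 2 and -0.055 without vesicle array 3. The largest of these last differences was -0.23 ± 0.24 for Ctss, and the lowest adjusted p among the members was 0.921 in limma.

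**Figure D3:**
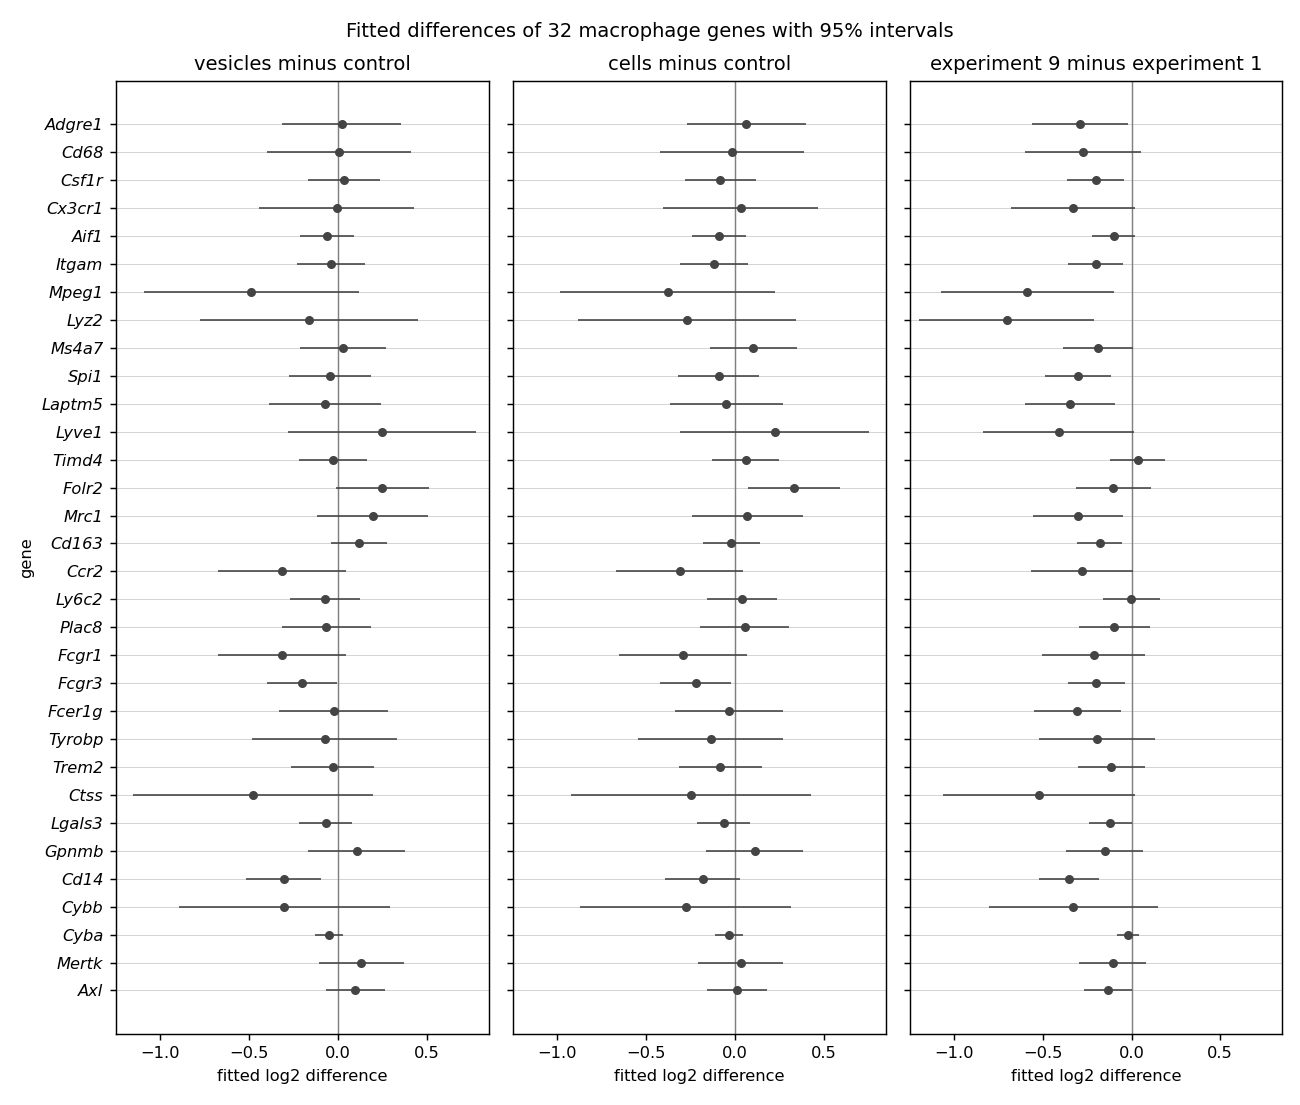
Fitted log2 difference of each of the 32 genes with its 95% interval from limma, for vesicles minus control, cells minus control and experiment 9 minus experiment 1. Most intervals of the first 2 panels cross 0, and all but 1 of the points in the third lie to the left of it.

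The treatments were also compared within each experiment. In experiment 9, 18 members were higher and 13 lower on the vesicle array than on the control array, with a median of 0.058, and 16 were higher and 15 lower on the cell array. In experiment 1 the vesicle arrays averaged higher for 8 members and lower for 24, with a median of -0.12, and the cell arrays for 9 and 22, with a median of -0.14. The medians over all genes lay between -0.010 and 0. Of all genes, 36.2% were higher on the vesicle array and 38.5% on the cell array of experiment 9, and 36.8% and 39.8% in experiment 1. Each experiment holds 1 control array, so these differences carry that array's own deviation.

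**Figure D4:**
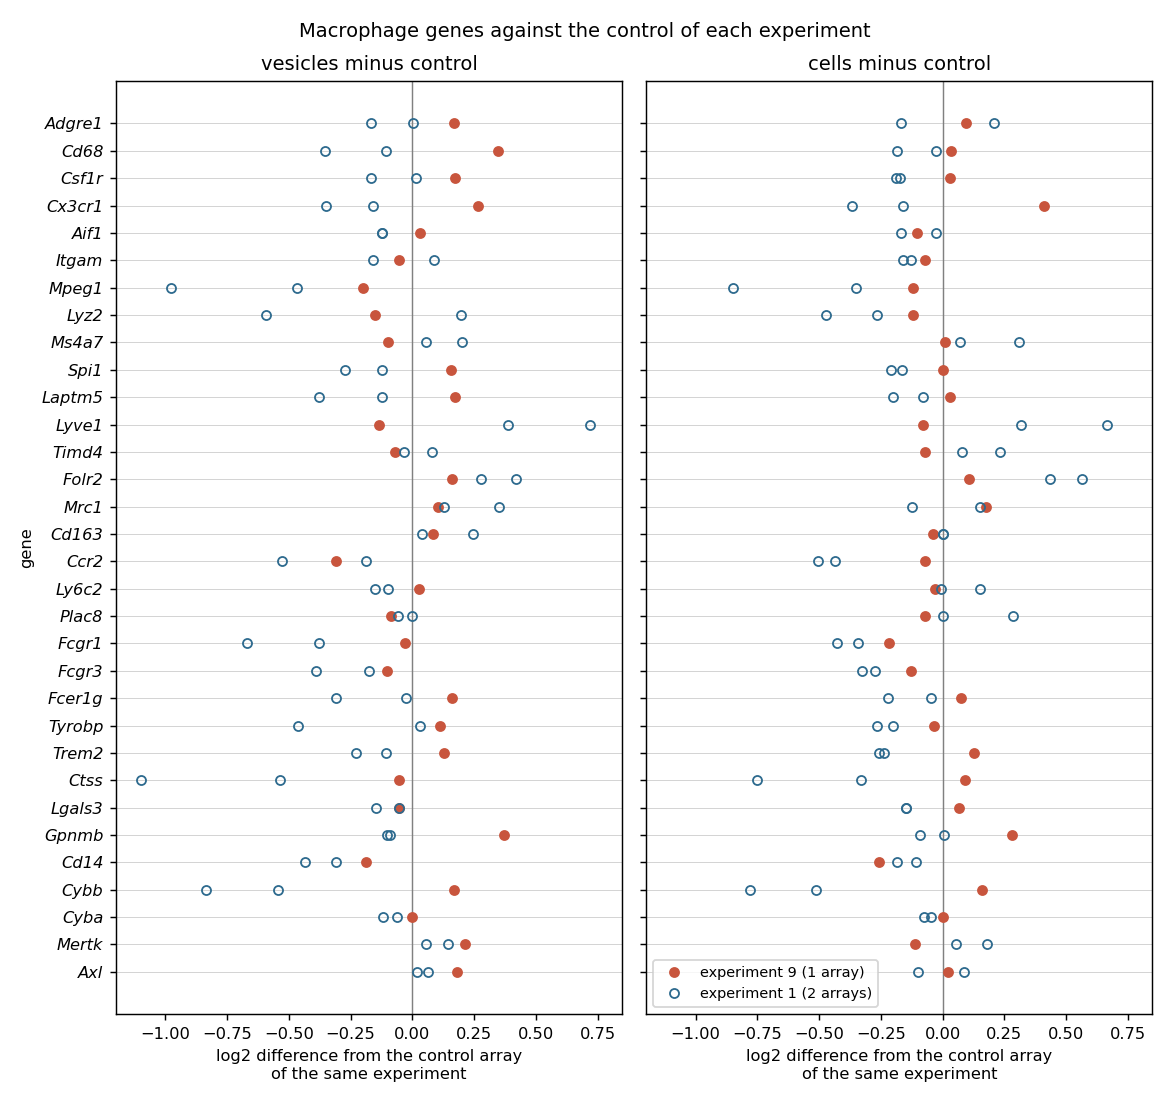
Log2 difference of each vesicle array (left) and cell array (right) from the control array of the same experiment, for the 32 genes in rows, with filled red points for experiment 9 and open blue points for experiment 1. For Ctss, Cybb and Mpeg1 the open points lie far to the left of the filled ones, and for Lyve1 and Folr2 they lie to the right.

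Whether the difference from control was another in both experiments was tested as an interaction. It called 0 members for vesicles (0% of all genes) and 0 for cells (0%) in limma, with 2 residual degrees of freedom. At an unadjusted p under 0.05 it gave 1 member for vesicles, Gpnmb, where 18.2% of all genes passed, and 2 for cells, Gpnmb and Trem2, where 18.9% passed. Gpnmb was 0.37 above control on the vesicle array of experiment 9 and on average 0.098 below it in experiment 1, an interaction of 0.47 ± 0.083 (adjusted p of 0.154 in limma). Its vesicle arrays were alike, at 6.32, 6.29 and 6.30, while control array 1 at 5.95 was the lowest of the 9 and control array 2 read 6.39. Both genes were named after their values had been seen, and their shares are below the background.

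Control array 2 was the highest of the 9 arrays for 16 of the 32 members, where it was highest for 24.7% of all genes. Among them were Mpeg1 at 5.98, Ctss at 8.28, Cybb at 7.12 and Cd68 at 7.02, and also Ccr2, Spi1, Laptm5, Cx3cr1 and Aif1, the Fc receptor genes Fcgr1, Fcgr3, Fcer1g and Trem2, and Lgals3, Cd14 and Cyba. At the other end, Ms4a7, Lyve1, Folr2 and Mertk had their lowest experiment 1 value on this array, 4 of 32 members, where 15.0% of all genes did. Of the 3 resident genes, 2 are in this second set, whose share of the members is not above that of all genes.

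Genes of several other leukocytes were also high on control array 2. The median over all genes was 5.56 to 5.60 on the other arrays and 5.63, the highest, on control array 2. A list score, the mean deviation of its genes from their 9-array means, was 0.19 for the 32 members there. It was 0.15 for 7 T and natural killer cell genes, 0.15 for 4 B cell genes, 0.14 for 9 neutrophil genes, 0.11 for 7 dendritic cell genes and 0.29 for 5 common leukocyte genes, whereas 4 mast cell genes scored -0.058. On the other 8 arrays the T and natural killer score lay between -0.066 and 0.017, the B cell score between -0.048 and -0.0099 and the neutrophil score between -0.062 and 0.042. No gene of these 4 cell type lists exceeds the brightness line by its mean. The B cell gene Cd79a read 5.60 on control array 2 and 5.32 to 5.38 on the others, and the T cell gene Cd3e 5.31 and 4.87 to 4.96. The part of these cells in the macrophage values was not tested.

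Vesicle array 3 was the highest of the 9 for 7 members, Csf1r, Itgam, Lyz2, Lyve1, Mrc1, Cd163 and Tyrobp, where it was highest for 7.77% of all genes. The score of 8 lung epithelium genes was 1.84 on it, 0.063 on the sham array and -0.32 to -0.21 on the other 7. The score of 5 alveolar macrophage genes was -0.00024 on it and between -0.073 and 0.055 over all 9 arrays, with each of the 5 under the brightness line. The part of lung tissue in these 7 values was not tested. With vesicle array 3 and control array 2 both left out, a fit added after the data had been seen, the median over the members was -0.0052 for vesicles and 0.041 for cells against control, and 0 members passed in limma.

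**Figure D5:**
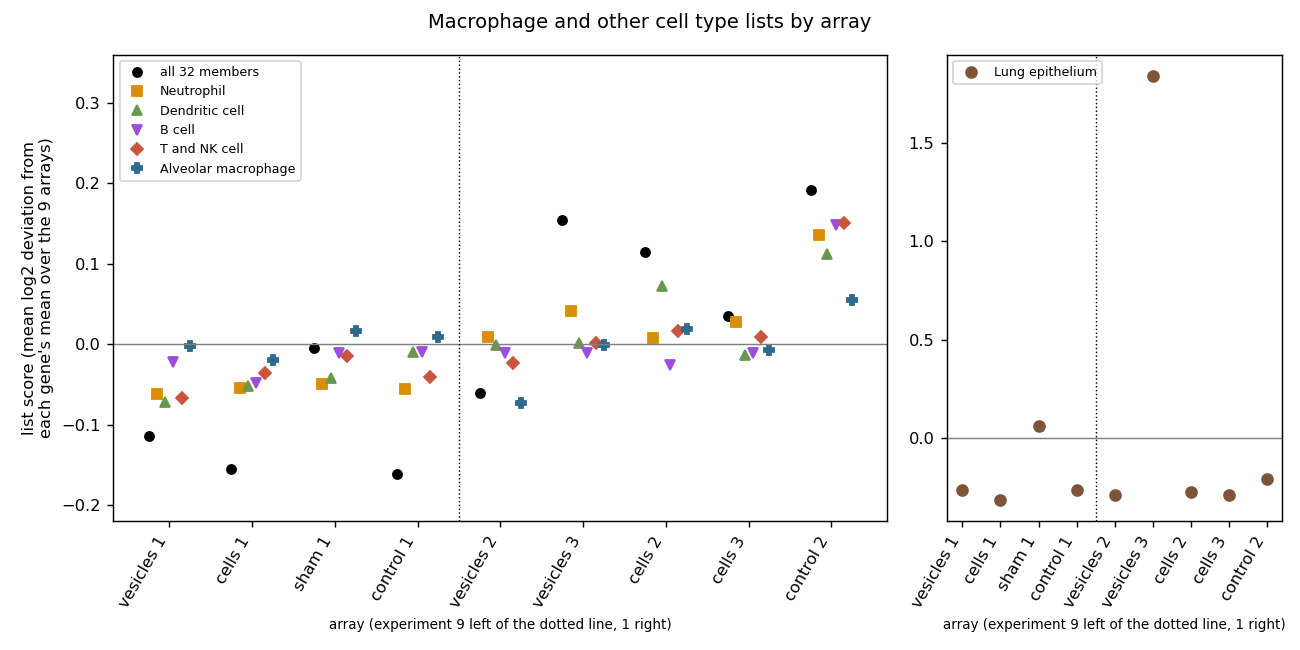
List score on each array (mean log2 deviation of the list's genes from their 9-array means), for the 32 members and 5 leukocyte lists on the left and for lung epithelium on a wider scale on the right, with experiment 9 left of the dotted line. The members and all 5 leukocyte lists are highest on control array 2, and lung epithelium stands at 1.84 on vesicle array 3.

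A larger median difference lay between the experiments. In experiment 9 against experiment 1, fitted over the 8 injected arrays, 31 of 32 members were lower and 1 higher (58.8% of all genes lower). Their median was -0.20, beside -0.010 over all genes. On 10 members (Adgre1, Csf1r, Itgam, Lyz2, Ms4a7, Spi1, Laptm5, Mrc1, Cd163 and Fcer1g) all 3 injected experiment 9 arrays lay below all 5 experiment 1 arrays, where 2.73% of all genes did so. Members with the opposite arrangement numbered 0 (4.14% of all genes). At an unadjusted p under 0.05, 12 members passed, beside 12.7% of all genes, and none passed after adjustment, with the lowest adjusted p at 0.257 for Cd14 in limma.

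The 3 bright members with the lowest unadjusted p were Lyz2 (-0.70 ± 0.19, adjusted p of 0.330), Csf1r (-0.20 ± 0.063, adjusted p of 0.357) and Mrc1 (-0.30 ± 0.099, adjusted p of 0.363) in limma. Mrc1, for example, read 7.92 to 8.09 on the 3 injected experiment 9 arrays and 8.11 to 8.58 on the 5 experiment 1 arrays. The sham array, of experiment 9 but outside the fit, read 8.38, within the experiment 1 range. Its mean deviation over the 32 members was -0.0049. That score was -0.16 to -0.11 on the injected experiment 9 arrays and -0.061 to 0.19 on the experiment 1 arrays. In the fit Lyve1 was lower in experiment 9 (-0.41 ± 0.17, adjusted p of 0.402 in limma). The other resident and monocyte-derived genes stood at 0.034 ± 0.060 for Timd4, -0.10 ± 0.082 for Folr2, -0.28 ± 0.11 for Ccr2, -0.00034 ± 0.063 for Ly6c2 and -0.098 ± 0.079 for Plac8. Leaving out any single array moved the median over the members between -0.26 and -0.17. With vesicle array 3 and control array 2 both left out it was -0.13. In this fit the T and natural killer, B cell, dendritic cell and neutrophil lists were lower too in experiment 9. Lower genes were 7 of 7, 4 of 4, 7 of 7 and 9 of 9, where 58.8% of all genes were lower. The B cell score was 0.15 on control array 2. It was -0.025 to -0.010 on the other experiment 1 arrays and -0.048 to -0.0099 on the injected experiment 9 arrays. Dendritic cell scores overlapped likewise once control array 2 was set aside, and T and natural killer and neutrophil scores did not. The part of these lists in the members' shift was not tested. The 6 measured cardiomyocyte genes were higher in experiment 9, 6 of 6 with a median of 0.073, and 0 passed (lowest adjusted p of 0.215 in limma, for the myosin light chain gene Myl2 at 0.20 ± 0.026). The 8 lung epithelium genes were lower, 8 of 8 with a median of -0.37 and 0 passing. Their score was 1.84 on vesicle array 3. It was -0.29 to -0.21 on the other experiment 1 arrays and -0.32 to -0.26 on the injected experiment 9 arrays, which overlap. The part of either list in the members' shift was not tested.

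The sham array was compared with the control array of experiment 9 by value only, since there is 1 array of each and no replicate check. Of the 32 members, 27 were higher on the sham array and 4 lower (38.8% of all genes higher), with a median of 0.14, beside 0 over all genes. The largest differences were 0.47 for Gpnmb, 0.47 for Mrc1, 0.35 for Cd68 and 0.30 for Lyve1. Timd4, Plac8, Cyba and Ccr2 were the 4 that were lower. Control array 1 was the lowest of all 9 arrays for 12 of the 32 members, where it was lowest for 8.61% of all genes.

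Of 47 other genes of the macrophage pathway, listed by name, 40 were measured. For vesicles against control 18 were higher and 22 lower (60.5% of all genes lower). For cells 17 were higher and 23 lower (56.1% of all genes lower), with 0 called for either in limma. In experiment 9 against experiment 1, 2 were higher and 38 lower (58.8% of all genes lower), with 0 called and a median of -0.15. The complement genes C1qa, C1qb and C1qc, which tissue macrophages secrete, were lower by 0.25, 0.41 and 0.15 on the log2 scale in experiment 9. Of the ligands, Ccl7, which draws monocytes through Ccr2, differed by -0.21 ± 0.068 for vesicles and -0.20 ± 0.068 for cells against control (adjusted p of 0.675 and 0.679 in limma), and Csf1, the ligand of Csf1r, by 0.0020 ± 0.066 and -0.051 ± 0.066. Ccl7 was named after its values had been seen.

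Other resident markers did not follow 1 pattern. Cbr2, a carbonyl reductase of resident macrophages and of the airways, had values of 7.91, 8.03 and 8.85 on the vesicle arrays, 7.78, 8.08 and 8.13 on the cell arrays, 8.10 on the sham array and 7.72 and 7.98 on the control arrays, with its highest value on the array with lung transcripts. Siglec1 and Vsig4, a sialic acid receptor and a complement receptor, lay under the brightness line, with differences of -0.097 ± 0.098 and 0.0052 ± 0.18 for vesicles against control. The lineage factor Maf, known for its role in resident macrophages, differed by 0.17 ± 0.057 for vesicles and 0.13 ± 0.057 for cells against control (adjusted p of 0.675 and 0.679 in limma). Its 2 control arrays, at 7.27 and 7.25, were the lowest of the 9. Over all genes, 3.71% had every vesicle array above both control arrays, and 3.19% had every cell array above both. Maf was named after its values had been seen.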

How the data were processed

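RNA of frozen whole hearts was labelled with biotin for Affymetrix whole-transcript arrays, per the labels' protocols. The authors deposited 1 value per probe set and array, read here as log2 from a range of 1.55 to 14.2. For these log2 values the authors' log base, normalization and background correction are not given in the sources used, and the submitters' processing notes name Partek with no role or version.

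Of 80202 probe sets, 30604 have 1 gene symbol in the platform annotation. A further 654 of 2146 with several symbols were kept because these are older names of 1 gene in RefSeq's table (GRCm38.p6), Spi1 among them. Of 441 genes with several probe sets, the one with the highest mean was kept.

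The 8 injected arrays were fitted with limma 3.58.1 (lmFit, eBayes; R 4.3.3), with treatment and experiment as terms (4 residual degrees of freedom), two-sided, Benjamini-Hochberg over all 30702 genes. Values after ± are standard errors unless marked SD. Replicate numbers were given in accession order and do not pair arrays, and the VTS numbers in the titles were used as a block in an alternative. Values per array were given for the resident, monocyte-derived and, per comparison and direction, up to 3 bright members of lowest p. Those of Fcgr3, Cd14, Cybb and Mertk were added after they had been seen. Alternatives changed the block, scaling, filters, variance moderation, weights and arrays. The members, lists and rules were chosen with earlier results of these data known. The steps were tested on simulated data.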

Additional observations from a re-analysis of the deposited data

How the results depend on the processing

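No member passed limma's test under any alternative run: 20 alternatives for each treatment comparison, 18 for the experiments and 2 for the interactions. Over all genes, leaving out control array 1 gave 841 calls for vesicles and 969 for cells against control, least squares gave 4 for vesicles against control, 2 for the experiments and 3010 and 2984 for the vesicle and cell interactions, and pooling sham with control gave 1 for cells. The cause was not tested. Directions were less stable. In every alternative that held the gene, 15 members kept their sign for vesicles and 9 for cells. For vesicles against cells 12 did so, and for the experiments 26. Filters left dim members out of some alternatives, so that Ccr2 and Plac8, for example, were in 18 of the 20 for vesicles against control. The precision is limited by 2 control arrays and by the 20 members under the brightness line on every array. Replicate numbers give no pairing, since the titles number every array as replicate 1. With the VTS number, which arrays share, as the block, 0 members passed, and the medians were -0.042 for vesicles, -0.059 for cells and -0.0063 for vesicles against cells.

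With single arrays left out, the median over the members for cells against control ranged from -0.14 to 0.010, the first without control array 1. In the same way Lyve1 ranged from -0.095 to 0.53 for vesicles, -0.12 to 0.51 for cells and -0.11 to 0.14 for vesicles against cells, and Timd4 from -0.11 to 0.046, from -0.027 to 0.13 and, between experiments, from -0.0096 to 0.097. For cells against control Csf1r ranged from -0.19 to 0.045, Mrc1 from -0.023 to 0.16, Ly6c2 from -0.019 to 0.12, Plac8 from -0.036 to 0.13 and Cyba from -0.067 to 0.010. For vesicles against cells Ccr2 ranged from -0.12 to 0.12 and Cyba from -0.039 to 0.0023, and between experiments Folr2 from -0.18 to 0.0016 and Ly6c2 from -0.077 to 0.069. With vesicle array 3 and control array 2 both left out, Lyve1 became -0.15 for vesicles, -0.066 for cells and -0.083 for vesicles against cells, and for cells Csf1r became 0.069, Timd4 -0.017, Plac8 -0.017 and Cyba 0.017. Pooling sham with control gave -0.058 for Mrc1 in cells. Array weights gave 0.045 for Ccr2 in vesicles against cells. Ly6c2 between experiments was 0.032 with arrays centred on their median, 0.019 with sham pooled and 0.025 with array weights.

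The index moved with its genes. Without Lyve1 it was 0.17 above control for vesicles in experiment 9, 0.36 for vesicles in experiment 1 and 0.41 for cells in experiment 1. With bright genes alone it was -0.16 and 0.68 for vesicles in experiments 9 and 1 and -0.048 for cells in experiment 9. With Mrc1 and Cd163 added it was 0.32 for cells in experiment 1.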

Other observations

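Of the chemokines in the pathway list, Ccl12, a ligand of Ccr2, had 2 high values: 5.30 on cell array 2 and 5.37 on the sham array, against 4.26 to 4.85 on the other 7 arrays. Its fitted difference was 0.024 ± 0.34 for cells against control (adjusted p of 1 in limma), and it was named after its values had been seen. The score of 4 mast cell genes was highest on the sham array at 0.16 and lay between -0.068 and 0.053 on the other 8. Of these, the protease gene Cpa3 read 4.80 on the sham array and 4.07 to 4.57 on the others. All 5 of these genes lie under the brightness line.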
